A study of Mus musculus with 6 samples.

Results

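The fatty acid-binding protein genes Fabp1 to Fabp7 were followed in mouse liver after the active form of CREB-H was put back into animals that lack it. The 7 genes were taken by their symbols in the platform annotation, out of 22180 genes with a probe set of their own, and each was read from its probe set of highest mean over the 6 arrays. Fabp2 was chosen by its measured signal, which was higher in this same comparison, and the others follow from the family name. The differences between the groups are therefore given for the 7 genes as descriptions with an error. The counts of members in the fit across all probe sets are printed only beside the share of the whole array, and nothing is read from them.

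All 6 mice carried the knockout allele Creb3l3 tm1.1Sad in both groups and were 8 weeks old, on a normal diet. The control group of 3 mice received AAV-GFP, an adeno-associated virus that carries green fluorescent protein. The test group of 3 mice received AAV-CREB-H-ΔTC, the same kind of liver-targeted virus with the form of CREB-H that acts in the nucleus. Liver was taken 2 weeks after an intraperitoneal injection, and total RNA of each liver was read on 1 single-colour array, the replicates being listed as biological. Both groups lack endogenous CREB-H, so the comparison sets a supplied factor against none, and each value is an average over all cells of the tissue. In whole liver, fewer cells of a type and less RNA per cell cannot be told apart. The comparison addresses which genes respond to CREB-H in the liver.

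Fatty acid-binding proteins are small cytosolic proteins with a barrel-shaped pocket that holds a fatty acid or another lipid and carries it between membranes, enzymes and the nucleus. Each member is named for the tissue where it was first found: Fabp1 for liver, Fabp2 for intestine, Fabp3 for heart, Fabp4 for adipocytes, Fabp5 for epidermis, Fabp6 for ileum, where it binds bile acids, and Fabp7 for brain. In liver, Fabp1 is the abundant form and delivers ligands to PPAR-alpha, the nuclear receptor that drives fatty acid oxidation genes, while Fabp2 is chiefly a gene of the absorptive enterocyte. CREB-H, encoded by Creb3l3, is a membrane-bound transcription factor of liver and small intestine that is released by cleavage and acts on genes of lipid metabolism.

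The promoters of the members that bear on the comparison are shown first, as the 250 bases before the annotated start. They come from RefSeq with build GRCm38.p6, whose table held 5 of the 7 members (Fabp1, Fabp2, Fabp3, Fabp6 and Fabp7). Fabp2 is shown because it stood higher with CREB-H, Fabp1 as the liver form beside it, and Fabp3 and Fabp6 because they hold the half-site of the cyclic AMP response element (TGACG), the element that gave the CREB family its name. Fabp2 is chr3:122894822-122895071 on the plus strand, Fabp1 is chr6:71199629-71199878 on the plus strand, Fabp3 is chr4:130308488-130308737 on the plus strand and Fabp6 is chr11:43601563-43601812 on the minus strand. Capitals mark the matches of the motifs described after the sequences, and each reads 5′ to 3′ along the gene.
Fabp2: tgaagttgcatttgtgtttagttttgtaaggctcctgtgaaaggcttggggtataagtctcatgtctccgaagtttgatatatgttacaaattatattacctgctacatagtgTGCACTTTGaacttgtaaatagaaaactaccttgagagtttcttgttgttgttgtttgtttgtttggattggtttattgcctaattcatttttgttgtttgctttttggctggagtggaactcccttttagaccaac
Fabp1: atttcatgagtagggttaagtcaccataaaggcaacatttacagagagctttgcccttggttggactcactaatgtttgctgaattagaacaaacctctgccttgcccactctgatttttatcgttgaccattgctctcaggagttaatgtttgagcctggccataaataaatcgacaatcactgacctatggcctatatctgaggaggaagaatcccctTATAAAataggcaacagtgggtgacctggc
Fabp3: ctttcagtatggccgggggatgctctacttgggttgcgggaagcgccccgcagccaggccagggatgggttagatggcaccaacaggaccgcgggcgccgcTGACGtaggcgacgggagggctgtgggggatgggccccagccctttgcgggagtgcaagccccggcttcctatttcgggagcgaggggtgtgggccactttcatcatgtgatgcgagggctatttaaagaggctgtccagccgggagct
Fabp6: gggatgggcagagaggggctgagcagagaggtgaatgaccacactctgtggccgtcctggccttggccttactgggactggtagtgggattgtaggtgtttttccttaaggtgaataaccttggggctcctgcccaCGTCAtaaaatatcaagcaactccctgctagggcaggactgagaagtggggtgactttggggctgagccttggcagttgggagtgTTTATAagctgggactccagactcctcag

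A total of 5 motifs were searched on both strands of these windows and of all 32851 promoter windows of the table cut to the same length. The full cyclic AMP response element TGACGTCA was in none of the 5 promoters and in 1.55% of all windows. Its half-site TGACG, which also lies inside the full element, was in 17.8% of all windows, and among the members it lay in Fabp3 at bases 149 to 145 before the start and in Fabp6, on the opposite strand, at bases 114 to 110. The Fabp2 window held neither. It held CAAAGTNCA, the core read by the liver and gut factor HNF4, on the opposite strand at bases 137 to 129 (TGCACTTTG on the gene strand), and 1.19% of all windows held that motif. The TATA box TATAAA was in Fabp1 at bases 30 to 25 and, read on the opposite strand, in Fabp6 at bases 29 to 24, against 12.4% of all windows. The peroxisome proliferator response element, a direct repeat of AGGTCA with 1 base between the copies, to which PPAR binds together with RXR, was in none of the 5 and in 0.0335% of all windows. Only copies that match a motif at every fixed base were counted, so imperfect response elements were not searched for. The Fabp1 window holds, on the opposite strand, a copy of this direct repeat with 1 base changed. The lack of an exact copy therefore does not show that Fabp1 lacks a response element for PPAR. The motifs were picked with the promoter sequences in view, and a match or its lack describes these letters in this window alone.

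The arrays held 41345 probe sets with log2 signals from 1.42 to 13.9 and array medians between 4.98 and 5.01. The liver label was borne out by 10 hepatocyte markers, including Alb and Cps1, whose mean log2 signal lay between 11.9 and 12.1 on every array. Creb3l3 read 6.55, 5.93 and 6.40 with GFP and 6.73, 7.25 and 7.58 with CREB-H, higher in the test group as labelled. The sources used here do not give the stretch of the transcript that its probes read. On replicate 3 of either group Kdm5d, Eif2s3y and Uty, which lie on the Y chromosome, had a mean log2 signal of 7.83 and 7.67, against 3.15 to 3.39 on the other 4 arrays. Xist read the other way, at 4.43 and 3.75 on replicate 3 of GFP and of CREB-H and at 10.8 to 11.3 on the other 4 arrays. The labels used here give no sex. The replicates 3 stand apart from the rest and lie in both groups. Each member and each gene of lowest p in a list is therefore also given for replicate 3 alone and for replicates 1 and 2.

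Fabp2 was the one member with a large difference, 6.93-fold higher with CREB-H, while Fabp1, the form that liver normally uses, was 0.836-fold (95% interval 0.596 to 1.17). The log2 signal of Fabp2 (probe set 17402350, Entrez 14079) was 7.74, 7.24 and 7.50 in the GFP arrays and 10.39, 9.70 and 10.78 in the CREB-H arrays. All 3 CREB-H arrays lay above all 3 GFP arrays, with a gap of 1.96 between the closest pair. The means were 7.50 ± 0.25 and 10.29 ± 0.55 (SD, n = 3 each), a log2 difference of 2.79 (SE 0.28). The 95% interval of the fold was 4.37 to 10.99. Taken one by one, the CREB-H arrays stood 7.44-fold, 4.61-fold and 9.72-fold above the GFP mean. The difference ranked 9 from the top among the 41345 probe sets, and 5 genes with a single symbol, Fabp2 included, lay at that height or above: Apoa4, Far2, Cidec, Cgref1 and Fabp2. The difference was 3.27 between the replicates 3 and 2.55 between replicates 1 and 2.

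**Figure D1:**
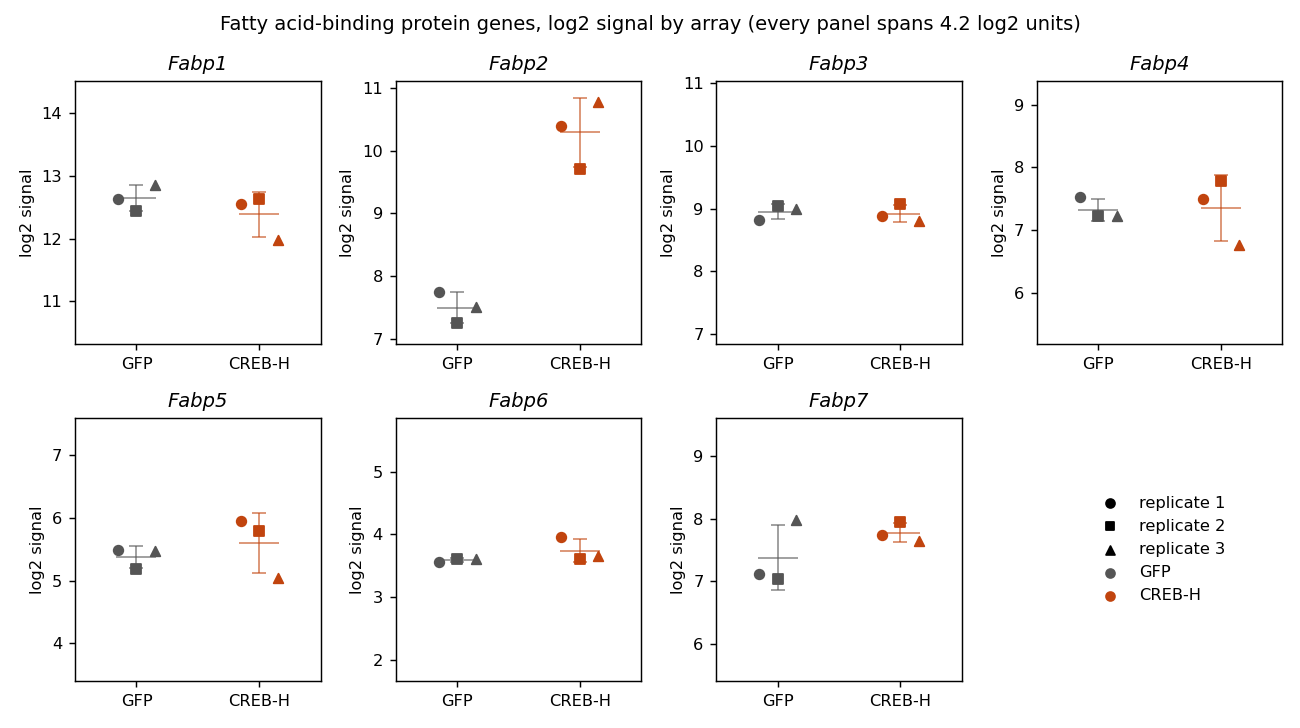
Log2 signal of the 7 genes by array, with GFP in grey and CREB-H in orange, symbols for the replicate number, and bars for the mean ± SD of 3 arrays; the y axes differ in level but all span 4.2 log2 units. Fabp2 is the one panel in which the groups are apart (7.24 to 7.74 against 9.70 to 10.78), and in Fabp1, Fabp3, Fabp4 and Fabp5 the triangle of CREB-H replicate 3 is the lowest of the 6 points.

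The other 6 genes differed by 0.40 or less on the log2 scale and their groups overlapped. Counting all 7, 5 were higher and 2 lower with CREB-H. The groups did not overlap in 1 of 7 members, with Fabp2 higher, and in 12.3% of all probe sets (5.23% higher and 7.10% lower). In limma, with p adjusted by Benjamini-Hochberg across the whole array, 0 of 7 members had an adjusted p below 0.05, against 0.00484% of all probe sets (2 of 41345; 0.00242% higher and 0.00242% lower). Without adjustment the count was 1 of 7, with Fabp2 higher, against 6.89% of all probe sets (2.93% higher). Because the genes were taken with this comparison in view, nothing is read from these counts.

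Fabp1 (probe set 17459455, Entrez 14080), which binds long-chain fatty acids in the hepatocyte, read 12.64, 12.44 and 12.86 with GFP and 12.56, 12.63 and 11.97 with CREB-H. CREB-H replicates 1 and 2 lay inside the range of the GFP arrays, and CREB-H replicate 3 was the lowest of the 6. The means were 12.65 ± 0.21 and 12.39 ± 0.36 (SD, n = 3 each), and the log2 difference was -0.26 (SE 0.21, 95% interval -0.75 to 0.23). It came to 0.06 between replicates 1 and 2, to -0.89 between the replicates 3 and to -0.05 when CREB-H replicate 3 was left out. Signals this bright lie near the top of the scale, and saturation calls were not used here.

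Fabp3 and Fabp6 were the steadiest members. Fabp3 (probe set 17419215, Entrez 14077), the form of heart and other oxidative muscle, read 8.81, 9.04 and 8.99 with GFP and 8.89, 9.06 and 8.81 with CREB-H, a difference of -0.03 (SE 0.12, 95% interval -0.31 to 0.25). It came to 0.05 between replicates 1 and 2 and to -0.18 between the replicates 3. A dimmer probe set of Fabp3 (17430628) had means of 4.31 ± 0.14 and 4.42 ± 0.13 (SD, n = 3 each) and a difference of 0.11 (SE 0.12). Fabp6 (probe set 17261963, Entrez 16204), the ileal bile acid carrier, read 3.56, 3.62 and 3.60 with GFP and 3.96, 3.61 and 3.66 with CREB-H, a difference of 0.15 (SE 0.12, 95% interval -0.14 to 0.44), with 0.19 between replicates 1 and 2 and 0.06 between the replicates 3. The groups overlapped, and 1 array, CREB-H replicate 1, stood above the others. The file holds no detection calls, so whether so dim a signal lies above background was not tested. The within-group SD of Fabp3 was 0.13 and that of Fabp6 0.14, against a median of 0.18 over all probe sets, while that of the other 5 members ran from 0.30 to 0.42.

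Fabp4 (probe set 17404091, Entrez 11770), which marks adipocytes and is also made by macrophages and endothelial cells, read 7.53, 7.22 and 7.22 with GFP and 7.49, 7.79 and 6.77 with CREB-H. The GFP arrays lay inside the span of the CREB-H arrays. The difference was 0.03 (SE 0.26, 95% interval -0.59 to 0.65), and it was 0.27 between replicates 1 and 2, -0.45 between the replicates 3 and 0.32 without CREB-H replicate 3. Fabp7 (probe set 17233384, Entrez 12140), the brain form, which in mouse liver is known from Kupffer cells, read 7.11, 7.04 and 7.98 with GFP and 7.74, 7.95 and 7.65 with CREB-H. GFP replicate 3 was the highest of the 6, and the other 2 GFP arrays were below all CREB-H arrays. The difference was 0.40 (SE 0.26, 95% interval -0.21 to 1.01), 0.77 between replicates 1 and 2, -0.33 between the replicates 3 and 0.70 without GFP replicate 3.

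Fabp5, known for epidermis and also made by macrophages and hepatocytes, was read by 4 probe sets, and they did not give 1 picture. In the probe set of highest mean (17396056, Entrez 16592) the signal was 5.49, 5.18 and 5.48 with GFP and 5.95, 5.80 and 5.05 with CREB-H. The difference was 0.22 (SE 0.24, 95% interval -0.36 to 0.80), with 0.54 between replicates 1 and 2 and -0.43 between the replicates 3. CREB-H replicates 1 and 2 lay above all GFP arrays, and CREB-H replicate 3 below all of them. In probe sets 17548238 and 17548717 the CREB-H replicates also lay on these sides of the GFP arrays, with a far wider spread. These probe sets read 6.14 and 6.02 in CREB-H replicate 1, 6.33 and 6.22 in replicate 2, and 3.96 and 3.80 in replicate 3. CREB-H replicate 3 was thus 4.84-fold and 4.98-fold below the mean of the other 2 CREB-H arrays in these probe sets, against 1.77-fold in probe set 17396056. Their GFP arrays read 5.21 to 5.72 and 5.0 to 5.57, and their differences over all arrays were 0.08 (SE 0.60) and 0.11 (SE 0.61). The dim probe set 17404073 lay between 3.23 and 3.71 on every array. Fabp5 has processed copies in the genome, such as the pseudogene Fabp5l2, and whether they add to these probe sets was not tested.

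**Figure D2:**
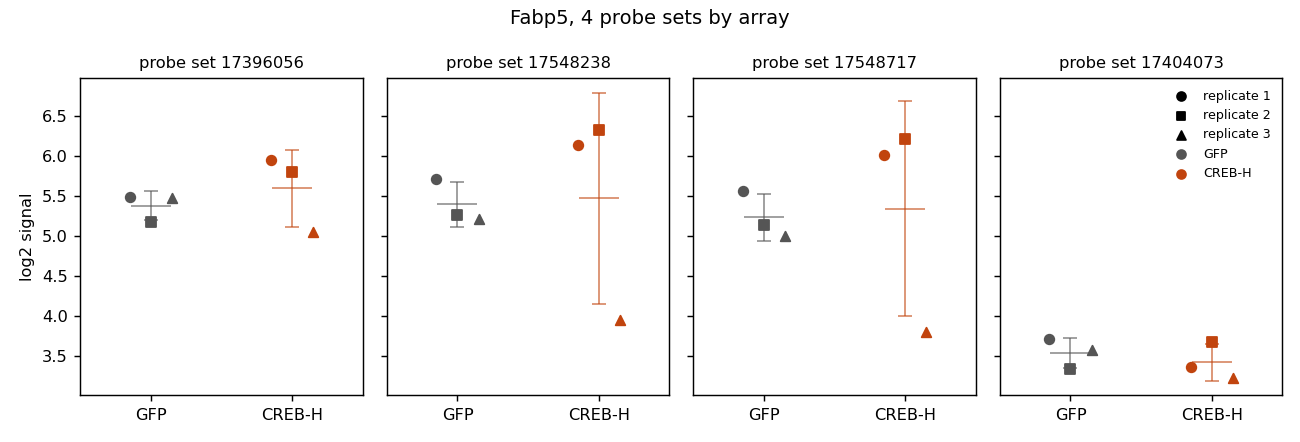
Log2 signal of the 4 probe sets of Fabp5 on a shared y axis, by group, with symbols for the replicate number and bars for the mean ± SD of 3 arrays. In the 3 brighter probe sets the triangle of CREB-H replicate 3 (5.05, 3.96 and 3.80) lies below every GFP array while CREB-H replicates 1 and 2 lie above them.

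Between replicates 1 and 2 all 7 members were higher with CREB-H, against 46.9% of all probe sets. Fabp2 was chosen by its rise in this comparison, and Fabp1 (0.06, SE 0.13) and Fabp3 (0.05, SE 0.15) differed by less than their error. The members were read with 1 probe set per gene, and over all 6 arrays 50.8% of genes read in that way were higher. Nothing is read from the count. Between the replicates 3, a single array per group, Fabp2 and Fabp6 were higher and 5 members lower, against 48.0% of all probe sets higher. The sign thus differed between the 2 sets of arrays in 5 of 7 members, and it did so in 47.4% of all probe sets. CREB-H replicate 3 was the lowest of the 6 arrays in 4 of 7 members (Fabp1, Fabp3, Fabp4 and Fabp5), and in 18.1% of all probe sets. A model with an interaction of CREB-H and Y-linked signal, which the choice of the genes had not used, was fitted by limma to all probe sets. The difference between the replicates 3 minus that between the others was -1.10 (SE 0.23) in Fabp7, -0.96 (SE 0.28) in Fabp5, -0.94 (SE 0.23) in Fabp1, -0.72 (SE 0.31) in Fabp4 and 0.72 (SE 0.52) in Fabp2. None passed: the Benjamini-Hochberg adjusted p was 0.600 for Fabp7, 0.674 for Fabp5, 0.633 for Fabp1, 0.746 for Fabp4 and 0.837 for Fabp2. No probe set of the 41345 passed in that fit, and at an unadjusted p below 0.05 there were 3 of 7 members and 6.9% of all probe sets. Each group has a single array with Y-linked signal, assumed in the fit to vary like the others.

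Y-linked signal itself, as a term beside the group, gave no call in the family either. The limma coefficient of the term was -0.51 (SE 0.21, adjusted p = 0.455) for Fabp4, -0.34 (SE 0.24, adjusted p = 0.669) for Fabp5, 0.37 (SE 0.28, adjusted p = 0.7) for Fabp2 and 0.36 (SE 0.25, adjusted p = 0.68) for Fabp7, and it lay between -0.15 and -0.05 for Fabp1, Fabp3 and Fabp6. Of all probe sets, 0.138% passed (57), and without adjustment the counts at a p below 0.05 were 1 of 7 members and 10.9% of all probe sets.

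**Figure D3:**
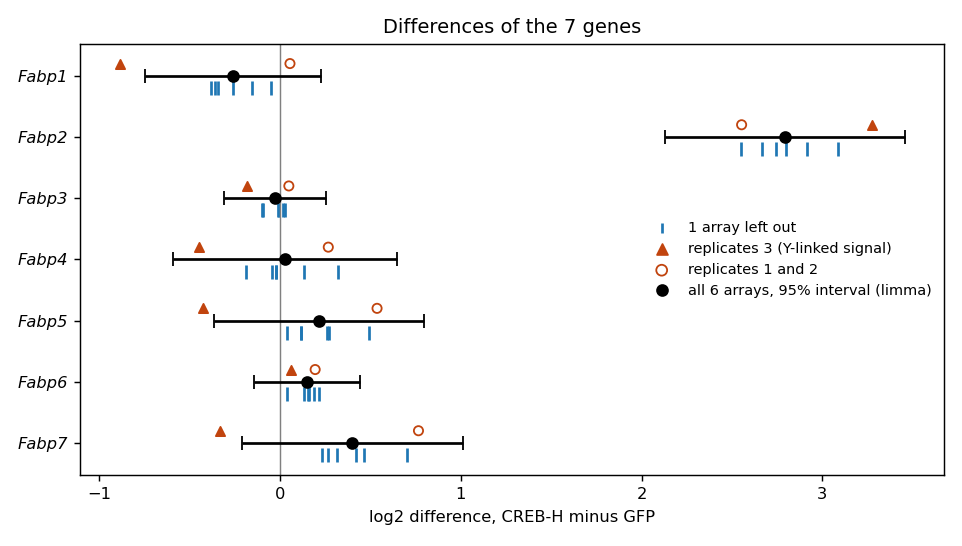
Log2 difference of CREB-H minus GFP for each gene: black circles with the 95% interval of limma over all 6 arrays, blue ticks for the fits without 1 array, open circles for replicates 1 and 2, triangles for the pair of replicates 3. Fabp2 lies at 2.55 or higher in every case, and in Fabp1, Fabp3, Fabp4, Fabp5 and Fabp7 the triangle lies below 0 and the open circle above it.

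Fabp2 and Fabp6 are enterocyte genes, and Apoa4 is also best known from intestine, so markers of the enterocyte were read on the same arrays. Of 13 such markers 2 were higher and 11 lower with CREB-H, and none passed the test (median -0.11, range -0.67 to 0.11, with -0.07 between replicates 1 and 2 and -0.26 between the replicates 3). Of the 13, 1 had an unadjusted p below 0.05, the galectin Lgals4 at -0.67, against 6.89% of all probe sets. Sis, Lct, Alpi and Vil1, which make digestive enzymes and the brush border, differed by -0.11, -0.19, -0.01 and -0.25. The mean level of the list lay between 4.82 and 4.94 with GFP and between 4.59 and 4.84 with CREB-H. The mean signal of 10 of the 13 was below the median of all probe sets. The part of enterocyte RNA in the value of Fabp2 was not tested beyond these levels. Among 13 measured genes of intestinal lipid absorption and chylomicron assembly, 6 were higher and 7 lower (median -0.03), and 4 had an unadjusted p below 0.05, against 6.89% of all probe sets. Apoa4, an apolipoprotein of chylomicrons, was the 1 gene that passed: it rose by a log2 difference of 3.70 (SE 0.18, limma adjusted p = 0.00786), with 3.50 between replicates 1 and 2 and 4.12 between the replicates 3. The call was lost with the replicate number as a block (adjusted p = 0.243), on the arrays without Y-linked signal (0.516) and when any 1 array but CREB-H replicate 2 was left out (0.0552 to 0.136), while its difference stayed between 3.50 and 3.86 under all 17 alternatives. Besides Apoa4, the groups did not overlap in the sterol exporters Abcg5 (0.57) and Abcg8 (0.45), both higher. Nor did they in the lipid transfer protein Mttp (-0.20) and the acyltransferase Dgat1 (-0.12), both lower. Over all probe sets the groups did not overlap in 12.3% (5.23% higher and 7.10% lower). The acyltransferase Agpat2 had the lowest value of the list (-0.52), and Apob and Apoa1 differed by 0.05 and 0.10.

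The genes whose values were most like those of Fabp2 were found by the root mean square difference over the 6 arrays, each gene first centred on its own mean. The 5 nearest were Gas6 (0.48), Osbpl3 (0.51), Cidec (0.52), Apoa4 (0.54) and Tnfaip8l1 (0.54), in log2 units. Gas6 encodes the ligand of the TAM receptors, Osbpl3 a member of the oxysterol-binding protein family, and Cidec a protein of the lipid droplet surface. In all 5, as in Fabp2, CREB-H replicate 3 was the highest array and replicate 2 the lowest of the CREB-H group, an order that their choice by likeness over the same arrays favours. Osbpl3 read 6.95, 5.98 and 8.07 with CREB-H against 4.81 to 5.06 with GFP, a wider spread than that of Fabp2.

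**Figure D4:**
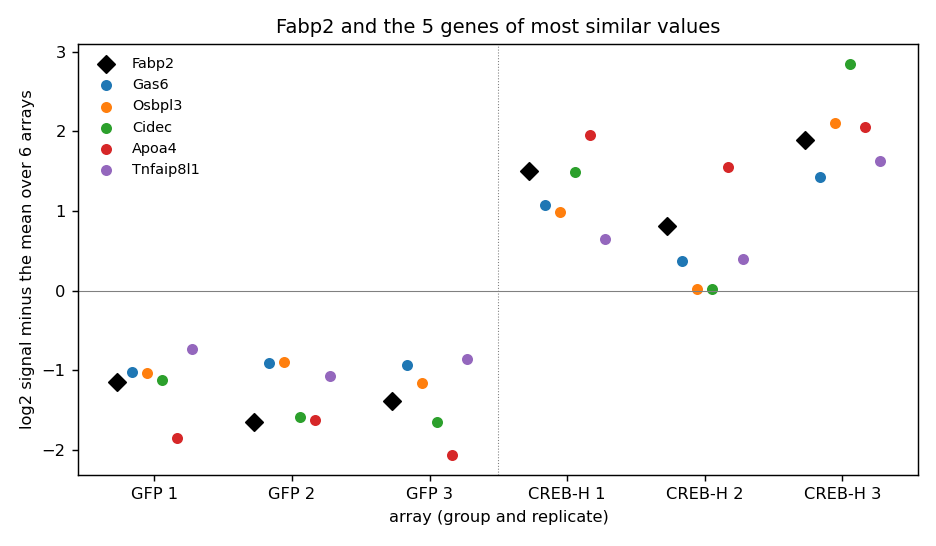
Log2 signal of Fabp2 (black diamonds) and of the 5 genes of smallest root mean square difference to it, each minus its own mean over the 6 arrays, by array. In every gene the GFP arrays lie below 0 and the CREB-H arrays above it, with replicate 3 the highest; the genes were chosen for this likeness.

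Neighbours of the members in the genome, by their order in the RefSeq table, gave no call, where only 0.00484% of all probe sets passed. The protein-coding genes on either side of Fabp2 are Pde5a and 1810037I17Rik, which differed by 0.12 (SE 0.11) and 0.02 (SE 0.37), and beyond them Fnbp1l and Usp53 differed by 0.29 (SE 0.26) and 0.10 (SE 0.12). Fabp5, Pmp2, Fabp9, Fabp4 and Fabp12 follow one another on the same chromosome 3 as a run of related genes. Pmp2, the myelin member, differed by -0.12 (SE 0.10), Fabp9, a testis member, by -0.18 (SE 0.11) and Fabp12 by -0.08 (SE 0.15), none of which passed. These neighbours were taken by position and named after the values were seen.

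The wider family of lipid-binding barrel proteins gave no call either, where only 0.00484% of all probe sets passed. Of 7 measured relatives (Pmp2, Fabp9, Fabp12, Rbp2, Rbp7, Crabp1 and Crabp2) 2 were higher and 5 lower with CREB-H, with a median of -0.12, and none passed. The retinoic acid carrier Crabp2 had the lowest p, with a difference of -0.24 (SE 0.11, limma adjusted p = 0.773), -0.35 between replicates 1 and 2 and -0.01 between the replicates 3. Of 13 measured genes of fatty acid entry, activation and transport, 6 were higher and 7 lower (median -0.08), and none passed. Acsl5, an acyl-CoA synthetase, had the lowest p, with 0.21 (SE 0.11, adjusted p = 0.808), 0.225 between replicates 1 and 2 and 0.17 between the replicates 3. Cd36, which takes up fatty acids, differed by 0.13, and the acyl-CoA carrier Dbi by 0.01. In both lists no member was at an unadjusted p below 0.05, against 6.89% of all probe sets. Over all probe sets the median difference was -0.01 and 46.3% were higher. With 1 probe set per gene, as the lists were read, the median was 0.003 and 50.8% of genes were higher.

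Fabp1 is itself a target of PPAR-alpha, so a list of other targets was read beside it, which also holds the receptor gene Ppara and Rxra, the gene of its partner. Of 13 measured genes of the list 4 were higher, Ppara and Rxra among them, and 9 lower, with a median of -0.56, and none passed. Without adjustment 6 of them had a p below 0.05, against 6.89% of all probe sets. CREB-H replicate 3 was the lowest of the 6 arrays in 8 of the 13, against 18.1% of all probe sets, and the median was -1.10 between the replicates 3, -0.13 between replicates 1 and 2, -0.16 without CREB-H replicate 3 and -0.31 without GFP replicate 1. Acot1, a thioesterase, read 9.55 and 10.26 in CREB-H replicates 1 and 2 and 6.64 in replicate 3, and the omega-hydroxylase Cyp4a14 read 13.15, 13.32 and 11.34, both picked after their values were seen. Ppara itself, the gene of lowest p, went the other way, with a difference of 0.63 (SE 0.19, adjusted p = 0.647), 0.72 between replicates 1 and 2 and 0.44 between the replicates 3, and no overlap between the groups. Fgf21, a fasting hormone, was also higher, at 7.27, 6.63 and 10.30 with CREB-H against 4.99 to 5.71 with GFP. So were Cpt1a, at 11.64, 11.31 and 11.78 against 11.08 to 11.26, and Rxra, with a difference of 0.21. In the list the groups did not overlap in 3 genes that were higher and 6 that were lower, against 5.23% and 7.10% of all probe sets.

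**Figure D5:**
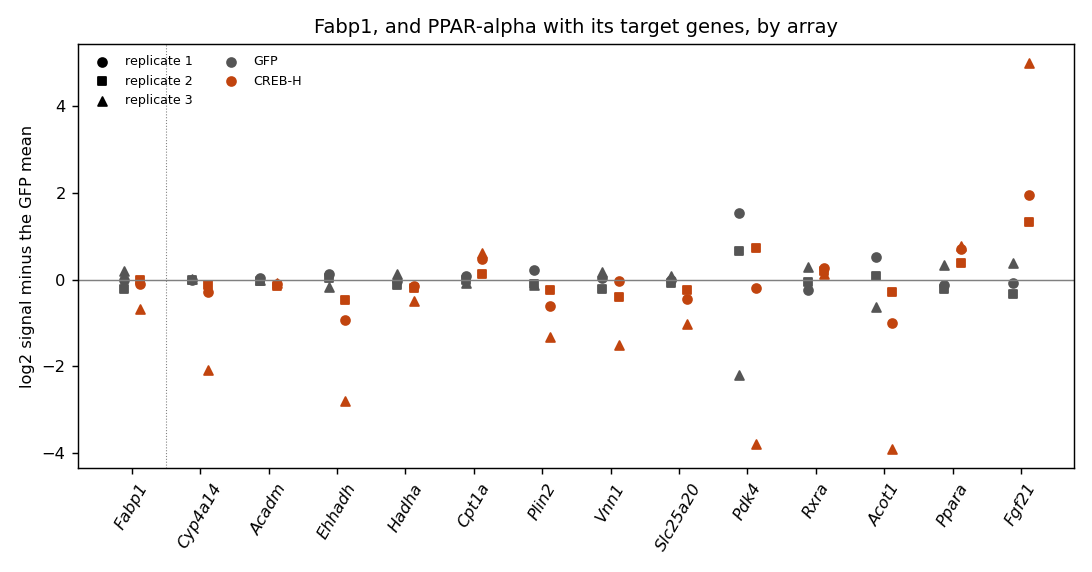
Log2 signal minus the GFP mean of each gene, for Fabp1 and for 13 genes of the PPAR-alpha list, by array, with symbols for the replicate number. The orange triangle of CREB-H replicate 3 lies below all other points of the gene in Fabp1 and in 8 of the 13 genes, and far above them in Fgf21.

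Fabp4 is a target of PPAR-gamma, the receptor of adipocytes and of the fatty liver. Of the 11 genes of its list, Pparg included, 5 were higher and 6 lower (median -0.01, and -0.18 to 0.12 with 1 array left out), and none passed. An unadjusted p below 0.05 was found in 3 of the 11, against 6.89% of all probe sets. Pparg itself differed by 0.93, with 1.28 between replicates 1 and 2 and 0.23 between the replicates 3. Cidec had the lowest p, with a difference of 2.91 (SE 0.65, adjusted p = 0.613), which was 2.11 between replicates 1 and 2 and 4.50 between the replicates 3. Of 8 measured adipocyte markers 5 were higher and 3 lower (median 0.16), and none passed. Of the 8, 2 had an unadjusted p below 0.05, against 6.89% of all probe sets. In 3 of the 8, Pck1, Lep and Retn, all CREB-H arrays lay above all GFP arrays, against 5.23% of all probe sets. Their differences were 0.50, 0.42 and 0.19. Slc2a4 and Lipe differed by 0.34 and 0.13, and Plin1, Cidea and Adipoq by -0.12, -0.12 and -0.03, next to 0.03 for Fabp4. The mean level of the list lay between 5.57 and 5.78 with GFP and between 5.77 and 6.0 with CREB-H. Hepatocytes also express Pck1 strongly.

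Macrophages and endothelium, which also make Fabp4, Fabp5 and Fabp7, were read from their own markers. All 10 Kupffer cell and macrophage markers were higher with CREB-H (median 0.41), though none passed and none had an unadjusted p below 0.05. Their mean level was 8.29, 8.92 and 7.87 with GFP and 8.89, 9.15 and 8.31 with CREB-H, lowest in replicate 3 of each group. The groups overlapped, and the median came to 0.20 when GFP replicate 3 was left out, 0.25 when CREB-H replicate 2 was, 0.69 when GFP replicate 2 was and 0.67 when CREB-H replicate 3 was. Among the CREB-H arrays replicate 3 was the lowest in 5 of the 7 members: Fabp4, Fabp5 and Fabp7, and also Fabp1 and Fabp3. Among the GFP arrays replicate 3 was the lowest in Fabp4, between the others in Fabp5 and the highest in Fabp7. Of 10 endothelial markers 7 were higher and 3 lower (median 0.12, but from 0.03 when GFP replicate 1 was left out to 0.22 when CREB-H replicate 3 was), with mean levels from 8.28 to 8.59 with GFP and from 8.34 to 8.59 with CREB-H. The part of these cell types in the values of Fabp4, Fabp5 and Fabp7 was not tested.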

How the data were processed

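Total RNA of 6 mouse livers, 3 per group, was hybridised to 1 array each. The authors deposited 1 log2 value for each probe set and array. Per the submitters' processing notes, the software was the Transcriptome Analysis Console, and its version, summarisation, normalization and filters are absent from the sources used here. That the values are log2 follows from their range. Probe sets were named from GEO's platform annotation (1 symbol only), and the 7 members had 11 probe sets.

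The test was limma (version 3.58.1, R 4.3.3, lmFit and eBayes) on these values, both sides, at a Benjamini-Hochberg adjusted p of 0.05 across the 41345 probe sets. Intervals are 95% and moderated. The number of arrays limits the precision, with a median SE of 0.14. Likeness was computed for members spanning at least 2 on the log2 scale. The genes named were all members, the 5 most like them, and in each of 6 pathway lists the genes that passed or else the one of lowest p; other list genes with values were picked after these were seen. The model was tested on simulated data. Motifs were searched in Python 3.11.15, and figures drawn with matplotlib 3.10.9. The members and the lists were chosen with earlier results of these data known. Alternatives covered normalization, dim probe sets, the variance model, array weights, the replicate number, Y-linked signal (mean of 3 genes above 5) and each array left out. The interaction model and the pair of replicates 3 alone were added after seeing the data.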

Additional observations from a re-analysis of the deposited data

Results flagged for a closer look

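Fabp5 moved up with CREB-H between replicates 1 and 2, by 0.54 on the log2 scale, and down between the replicates 3, which carry Y-linked signal, by a difference of -0.43. Fabp7 did the same, with 0.77 and -0.33. In both genes each CREB-H array lay above each GFP array among replicates 1 and 2, and the order was turned in the pair of replicates 3. The interaction did not pass in limma after Benjamini-Hochberg adjustment over all probe sets (adjusted p = 0.674 for Fabp5 and 0.600 for Fabp7), and the pair of replicates 3 holds a single array per group.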

How the results depend on the processing

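Of the 19 alternatives for the log2 difference of Fabp2, 12 can move it, and the other 7 change its error or the probe sets tested. Over the 12 it lay between 2.55 and 3.27: 2.55 to 3.09 with 1 array left out, and 3.27 between the 2 arrays with Y-linked signal. Fabp6 ranged from 0.04 to 0.22, Fabp1 from -0.89 to 0.06, Fabp5 from -0.43 to 0.54, Fabp7 from -0.33 to 0.77, Fabp3 from -0.18 to 0.05 and Fabp4 from -0.45 to 0.32. Of the 7 members, 4 to 6 were higher with 1 array left out and 7 on the arrays without Y-linked signal. Fabp6 is not among the genes tested once the dimmest 25% or 50% of probe sets are left out. Over all probe sets, the 2 calls of CREB-H against GFP became 1 with a term for Y-linked signal, 0 on the arrays without that signal and 0 to 2 with 1 array left out, 0 in each case but that of CREB-H replicate 2. The calls for Y-linked signal were 57, and 100 without the dimmest 50%, 95 with limma-trend, 156 with 1 probe set per gene and 13 to 35 with 1 array left out. The cause of these shifts was not tested. With the replicate number as a block the calls of CREB-H against GFP were 0. In this balanced design the block cannot move a difference, so that of Fabp2 is 2.79 by construction. Deviations from the group means correlated at 0.0785, 0.127 and 0.33 between arrays of the same number. Across the groups they correlated at 0.121 and 0.159 between numbers 1 and 2, and at -0.232 to -0.161 between replicate 3 and the others. The replicates 3, which carry Y-linked signal, thus went together, while numbers 1 and 2 were about as alike across numbers as within. The numbers as such were not taken as pairs. Dim signals, as of Fabp6, limit what the arrays can show.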

Other observations

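Bile acid genes, the setting of Fabp6, were mixed. Of 12 measured genes of bile acid sensing and transport 8 were higher and 4 lower with CREB-H (median 0.16, 0.12 between replicates 1 and 2 and 0.06 between the replicates 3). None passed in limma, and 1 of 12 had an unadjusted p below 0.05, against 6.89% of all probe sets. The median was 0.02 without GFP replicate 1 and 0.08 without CREB-H replicate 3. The gene of lowest p was Klb, the co-receptor through which FGF19-type hormones and FGF21 act. Klb read 8.75, 8.94 and 9.46 with GFP and 9.51, 9.58 and 9.92 with CREB-H. Its log2 difference was 0.62 (SE 0.21, adjusted p = 0.686), 0.70 between replicates 1 and 2 and 0.46 between the replicates 3. The ileal bile acid importer Slc10a2 differed by 0.26, the exporter subunit Slc51a by 0.15 and the receptor Nr1h4 by -0.28.

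Markers of other cell types of the liver and of the tissues that name the members gave no call, where only 0.00484% of all probe sets passed. Stellate cell markers were higher in 7 of 10 (median 0.07), but in 4 of 10 without CREB-H replicate 1 (-0.06) or replicate 2 (-0.08), in 5 of 10 without GFP replicate 3, and in 9 of 10 without CREB-H replicate 3 (0.20). Without GFP replicate 1 the median was 0.15, and without GFP replicate 2 it was 0.11. Cholangiocyte markers were higher in 5 of 7 (0.13, but 0.06 without GFP replicate 3). Of these, 5 were dimmer than the median probe set, and without the dimmest 50% of probe sets 0 of 2 were higher (-0.25). Heart and skeletal muscle markers, the setting of Fabp3, were higher in 4 of 10 (-0.01), and glial and neural markers, the setting of Fabp7, in 4 of 8 (-0.03). Hepatocyte markers were higher in 5 of 10 (0.00). With 1 array left out the medians of the muscle, glial and hepatocyte lists ran from -0.08 to 0.01, from -0.09 to 0.06 and from -0.03 to 0.02. Stellate cell markers were lowest in CREB-H replicate 3 in 6 of 10 genes, against 18.1% of all probe sets.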
